A study of Homo sapiens with 2 samples.

Results

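The DNA replication and S-phase genes of HUCCT-1 cells, an established human intrahepatic cholangiocarcinoma line, were examined after treatment with XY101, an antagonist of the nuclear receptor RORγ. They are 43 genes chosen by name for their place in copying DNA or in entry into S phase, out of 16654 genes measured, and all 43 were in the table at a mean level of at least 1 FPKM. Cells received 5 μM XY101 for 2 days (48 h), or vehicle for the same time. Each condition was 1 library of polyadenylated RNA from this 1 cell line, the labels name no other agent or genetic change in either condition, and the vehicle sample is the one numbered 2 in its title. The question behind the comparison was how an RORγ antagonist acts on the growth of these cells. Neither condition was replicated, so no test could be run and every difference describes a pair of libraries.

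Replication begins before S phase, when the origin recognition complex, CDC6 and CDT1 load the ring of MCM2 to MCM7 onto DNA, a step called licensing. In S phase the DBF4-dependent kinase CDC7 and its partner proteins add CDC45 and the GINS complex to that ring, which then unwinds DNA, while the clamp PCNA, its RFC loader, the RPA single-strand binding proteins and the DNA polymerases copy the strands. Many of these genes are transcribed by E2F factors when cyclin E and its kinase release them from the RB protein, so their mRNAs are usually high together in dividing cells and low together in resting ones. Tumour cell lines in culture normally express nearly all of them.

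E2F factors bind a short motif near the start of many of these genes, and the MCM genes show where it lies. Each stretch below is 28 bases of the reference genome (RefSeq, GRCh38.p14), 5′ to 3′, with a motif match in capitals. Every one holds TTTCGCGC or TTTGGCGC close to the start of transcription.
MCM2: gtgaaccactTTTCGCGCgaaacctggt
MCM3: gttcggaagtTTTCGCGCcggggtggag
MCM6: attggtcaggTTTGGCGCgaaatctcca
MCM7: gggggcgacgTTTCGCGCcaatttcggt
The MCM2 stretch is chr3:127598403-127598430 on the plus strand, and its motif begins at 2, counted from the start of transcription at 0. The other stretches are on the minus strand, as their genes are: MCM3 at chr6:52284729-52284756 with the motif at -4, MCM6 at chr2:135876516-135876543 with the motif at -90, and MCM7 at chr7:100101389-100101416 with the motif at -9.

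Levels are given in FPKM as the authors deposited them: fragment counts scaled to transcript length and to the mapped fragments of the library. For every gene the log2 ratio was taken as log2((XY101 + 0.1)/(vehicle + 0.1)), and genes with a mean of at least 1 FPKM, 10894 in all, served as the background. The FPKM values summed to 832820 with XY101 and 858282 with vehicle, and 14719 and 14666 genes were above 0. The spacing of low values placed both libraries near 17500000 fragments. There, 79.2% of the XY101 values examined and 82.1% of the vehicle values were whole fragments within 0.2. Only 106 values were examined in each library. The depth was picked for a high share of whole fragments, so that share is no test of it. From that depth and the median length of a gene's coding transcripts, an approximate exact binomial 95% interval was set around each ratio; it covers counting error only, and not the spread between cultures. All 7 biliary epithelial markers examined, among them KRT7, KRT19 and EPCAM, were above 1 FPKM in the mean, while the endothelial markers summed to 0.70 FPKM in each library and the only hepatocyte marker measured was 0.10 FPKM with XY101 and 0.09 with vehicle. The 2 leukocyte markers measured summed to 47.17 FPKM with XY101 and 63.6 with vehicle, nearly all of it CD68, while the defining marker PTPRC was 0 and 0.02 FPKM. The 4 fibroblast markers summed to 10.12 FPKM with XY101 and 7.27 with vehicle, of which COL1A1 was 9.82 and 7.01 FPKM. The part of such markers' cell types in the ratios was not tested. The median gene had a log2 ratio of 0.09 (1.07-fold), so each ratio is also read against that value.

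As a group, the replication and S-phase genes did not stand apart from the other genes of the cell. Their median log2 ratio was 0.09 (1.06-fold), and it was -0.01 after the median gene was set to 0. Of the 43 genes, 29 (67.4%) had a higher level with XY101, where 64.4% of all genes did, and 21 (48.8%) were above the median gene. At a threshold of 25% (a 20% decrease in the other direction), 8 genes (18.6%) were higher with XY101, against 18.9% of all genes, and 0 were lower, against 7.51% of all genes. None of the 43 was 2-fold higher, as 1.17% of all genes were, or 2-fold lower, as 0.698% were. Their ratios lay between -0.28 (RFC4) and 0.61 (MCM10), and 35 genes (81.4%) stayed inside those limits, against 73.6% of all genes. FPKM is a share of a library, and in bulk RNA fewer cells in S phase and less RNA per cell cannot be told apart.

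**Figure D1:**
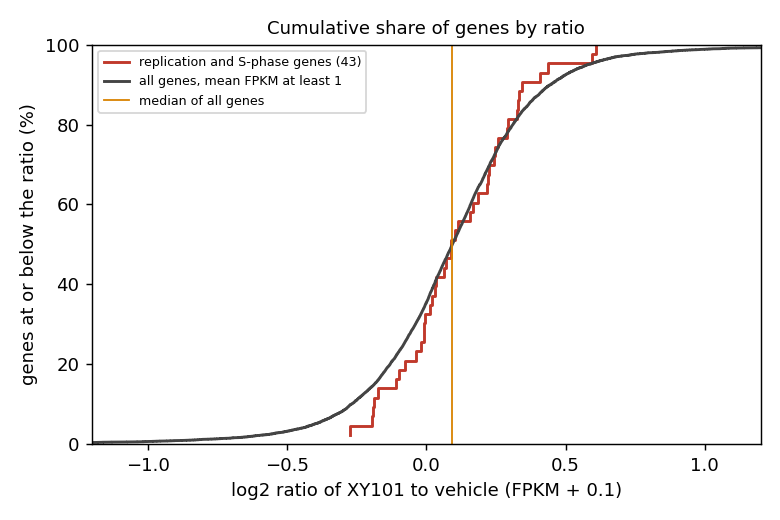
Share of genes (%) at or below each log2 ratio of XY101 to vehicle, for the 43 replication and S-phase genes and for all 10894 genes with a mean of at least 1 FPKM; the vertical line is the median of all genes, 0.09. The curves cross near that median, and the curve of the 43 genes begins at -0.28, to the right of the low tail of all genes.

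The 8 genes at least 25% higher were MCM10, CCNE2, POLA1, UHRF1, MCM3, SLBP, PCNA and POLE. With the median gene set to 0 the split became 3 higher and 2 lower, where 11.7% of all genes were higher and 12.4% lower: MCM10, CCNE2 and POLA1 stayed at least 25% higher, and CDT1 and RFC4 were then at least 20% lower. Trimmed-mean scaling gave the same 5 genes. Counting intervals were above the median gene for 11 of the 43 genes (25.6%), where 17.2% of all genes were, and below it for 10 (23.3%), where 21.4% were. The median number of fragments in the vehicle library was 511 for the replication genes and 306 for all genes, and more fragments give narrower intervals. The part of fragment number in these shares was not tested. With the shortest coding transcript of each gene in place of the median length, 7 intervals were above the median gene and 4 below. With the longest, 14 were above and 11 below. The shares of all genes were taken at the median length only, so these counts have no background to be read against.

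Levels among the genes differed far more than the libraries did. TK1, the thymidine salvage kinase, was the highest at 293.53 FPKM with XY101 and 273.36 with vehicle, and CCNE2, one of the cyclin E genes, was the lowest at 1.79 and 1.15 FPKM. The median level was 20.73 FPKM with XY101 and 20.64 with vehicle, in a range that reached from CCNE2 and MCM10 at the low end to PCNA and TK1. Across the 43 genes the levels in both libraries had a Spearman correlation of 0.98, a description of genes that share their libraries, and 15 genes kept exactly the same rank. Summed FPKM over the 43 genes was 1608.68 with XY101 and 1496.15 with vehicle, which is 0.193% and 0.174% of the FPKM in each library.

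**Figure D2:**
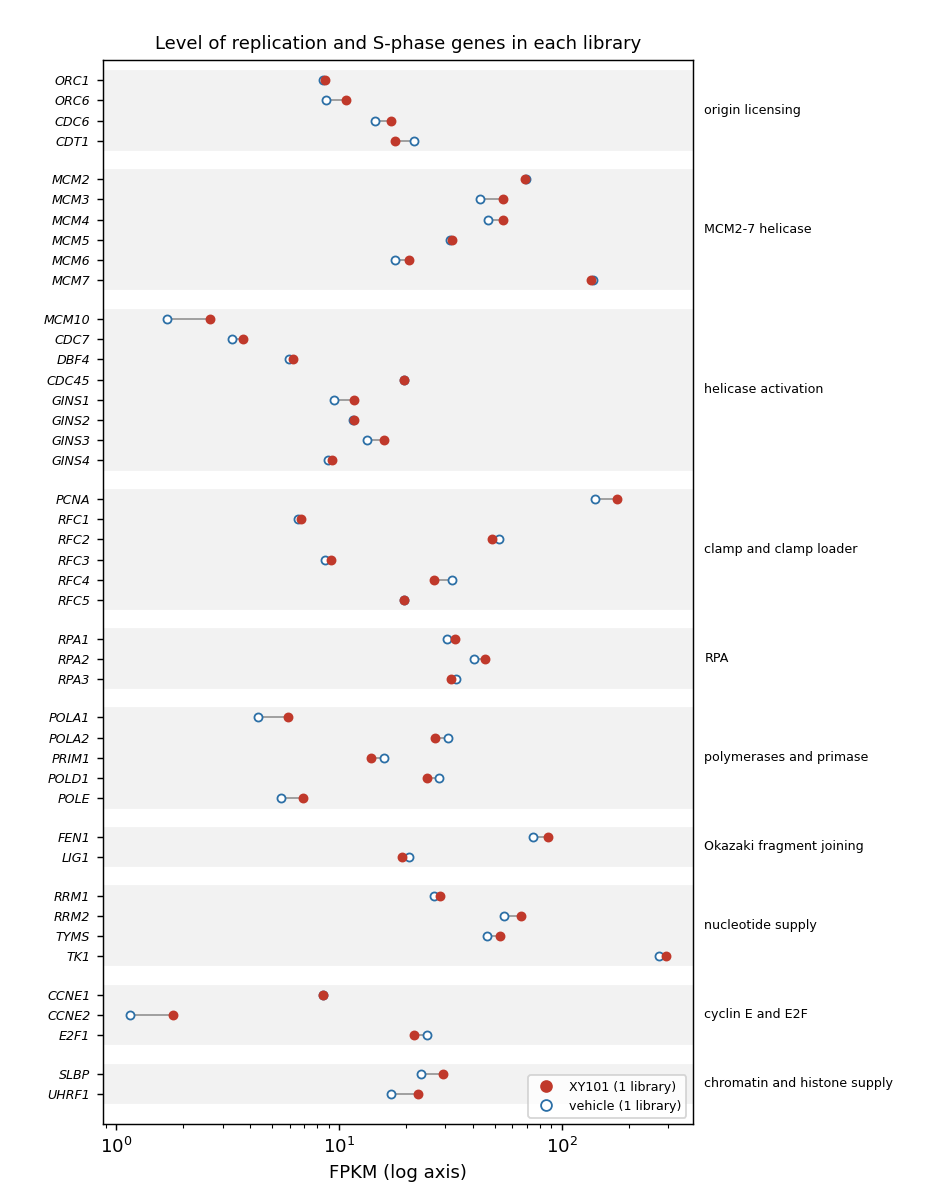
FPKM (log axis) of each of the 43 genes in the XY101 library (filled) and the vehicle library (open), grouped by role. The points of a gene lie close together across a range that runs from CCNE2 at 1.15 FPKM with vehicle to TK1 at 293.53 FPKM with XY101; MCM10 and CCNE2 show the widest gaps.

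Origin licensing genes were split. CDT1, which brings the MCM ring to the origin and is destroyed or bound by geminin once S phase starts, was 17.91 FPKM with XY101 and 21.68 with vehicle, a log2 ratio of -0.27 with a counting interval of -0.47 to -0.08. It was one of the lowest ratios of the 43 genes, and its interval lay below the median gene. With the shortest coding transcript of CDT1 the interval, -0.71 to 0.15, held 0 and the median gene. Geminin itself (GMNN) was 23.66 FPKM with XY101 and 23.60 with vehicle, so the level of CDT1 over that of GMNN was 0.757 with XY101 and 0.919 with vehicle. CDC6, the ATPase that loads the ring together with CDT1, lay on the other side at 17.18 and 14.51 FPKM (0.24), although its interval held 0. With the longest coding transcript of CDC6 the interval was 0.13 to 0.36, and with the shortest -0.27 to 0.76. ORC6 was 10.73 and 8.76 FPKM (0.29), while ORC1, the subunit that is itself removed after licensing, was nearly level at 8.62 FPKM with XY101 and 8.50 with vehicle (0.02).

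The 6 MCM ring genes encode proteins that sit in the ring in equal number, but their mRNAs were neither equal in level nor in ratio. MCM3 was 54.77 FPKM with XY101 and 43.16 with vehicle (log2 ratio 0.34, interval 0.26 to 0.43), the largest ratio of the ring. MCM4 was 54.59 FPKM with XY101 and 46.69 with vehicle (0.23, interval 0.14 to 0.32). MCM6 was 20.73 and 17.78 FPKM (0.22, interval 0.10 to 0.34). These 3 intervals were above the median gene. The other 3 ring genes were close to 0. MCM2 was 68.56 FPKM with XY101 and 69.41 with vehicle (-0.02). MCM5 was 32.13 and 31.42 FPKM (0.03). MCM7 was 134.86 and 138.53 FPKM (-0.04). The intervals of MCM2 and MCM7 were below the median gene. The ring thus divided into MCM3, MCM4 and MCM6 above that gene and MCM2 and MCM7 below, with MCM5 holding it. With the shortest coding transcripts, the intervals of MCM2 (-0.25 to 0.22) and MCM4 (-0.04 to 0.49) also held it. GC content was lower in MCM3 (51.7%), MCM4 (49.98%) and MCM6 (43.2%) than in MCM2 (57.2%), MCM7 (56.5%) and MCM5 (59.9%). With ratios centred in 20 bins of GC content, MCM3 was 0.28, MCM4 0.16 and MCM6 0.05. MCM2 was then -0.05, MCM7 -0.07 and MCM5 0.01. The part of GC content in the division was not otherwise tested. In level, MCM7 exceeded MCM6 by 6.51-fold with XY101 and 7.79-fold with vehicle. The E2F motifs printed for MCM2, MCM3, MCM6 and MCM7 occur on both sides of that division.

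Among the genes that turn the loaded ring into a working helicase, MCM10 had the highest ratio of all 43 genes. MCM10, a scaffold needed for unwinding to start, was 2.63 FPKM with XY101 and 1.69 with vehicle (0.61, 1.53-fold), about 164 and 105 fragments, with an interval of 0.28 to 1.01. It was also one of the 3 genes under 5 FPKM in the mean. The MCM10 interval with the shortest coding transcript, -1.17 to 2.60, held 0 and the median gene. CDC7, the kinase that acts on the MCM ring, was 3.71 and 3.32 FPKM (0.16). Its activating subunit DBF4 was 6.24 and 5.97 FPKM (0.06), and the intervals of both held 0. The GINS subunits also differed from each other. GINS1 was 11.71 FPKM with XY101 and 9.53 with vehicle (0.29, interval 0.12 to 0.48, or -0.18 to 0.78 with the shortest coding transcript). GINS3 was 15.93 and 13.31 FPKM (0.26, interval 0.06 to 0.46). The remaining GINS genes were closer to 0. GINS2 was 11.68 FPKM with XY101 and 11.56 with vehicle (0.01). GINS4 was 9.34 and 8.89 FPKM (0.07). CDC45, the other partner of the ring, was 19.53 and 19.66 FPKM (-0.01), near the GINS2 value and below the median gene, which its interval held.

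PCNA, the sliding clamp that holds polymerases on DNA, was higher with XY101 while the loader genes were not. PCNA was 177.60 FPKM with XY101 and 141.31 with vehicle (0.33, 1.26-fold, interval 0.25 to 0.41), the largest difference in FPKM of any of the 43 genes. The loader subunits RFC1, RFC3 and RFC5 were within 0.09 of 0. RFC1, the large subunit, was 6.72 FPKM with XY101 and 6.55 with vehicle (0.04). RFC3 was 9.22 and 8.67 FPKM (0.09). RFC5 was 19.56 and 19.66 FPKM (-0.01). The intervals of these 3 genes held the median gene. RFC2 was 48.88 FPKM with XY101 and 52.35 with vehicle (-0.10), and its interval, -0.22 to 0.02, held 0 but not the median gene. The interval with its shortest coding transcript, -0.30 to 0.10, held both. RFC4 had the lowest ratio of all 43 genes, at 26.66 and 32.29 FPKM (-0.28), with an interval of -0.59 to 0.04 that held 0 but not the median gene. With the longest coding transcript of RFC4 the interval was -0.44 to -0.11, and with the shortest -0.75 to 0.19. RFC4 shares 0.60% of its exon bases with EIF4A2 on the opposite strand, which was 117.63 FPKM with XY101 and 156.15 with vehicle, and the part of those reads in the RFC4 value was not tested. PCNA has 3 named pseudogenes in GENCODE, so its level depends on how near-identical reads were shared out.

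The RPA trimer coats single-stranded DNA at the fork, and its genes stayed within 0.17 of 0. RPA1 was 33.15 FPKM with XY101 and 30.62 with vehicle (0.11). RPA2 was 45.27 and 40.29 FPKM (0.17). RPA3 was 31.91 and 33.63 FPKM (-0.08). The 3 levels were close to each other, within 1.42-fold with XY101 and 1.32-fold with vehicle, unlike the MCM ring, and all 3 intervals held the median gene.

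Polymerase and primase genes were divided, also within 1 complex. POLA1 is the catalytic subunit of DNA polymerase alpha, which with primase starts each new strand, and it was 5.89 FPKM with XY101 and 4.32 with vehicle (0.44, 1.36-fold, interval 0.26 to 0.64). Its partner POLA2 was 27.02 and 30.80 FPKM (-0.19, interval -0.31 to -0.06). The primase subunit PRIM1 was 13.99 and 16 FPKM (-0.19, interval -0.43 to 0.04). POLA1 was thus above the median gene, with POLA2 and PRIM1 below it. The level of POLA2 over POLA1 was 4.59 with XY101 and 7.13 with vehicle. With the shortest coding transcripts the intervals of POLA2 (-0.54 to 0.16) and PRIM1 (-0.86 to 0.47) held the median gene. PRIM2, the other primase subunit, was 15.9 and 15.76 FPKM (0.01), and its interval, -0.26 to 0.29, held the median gene. PRIM1 shares 4.20% of its exon bases with NACA on the same strand, a far more abundant gene at 804.96 FPKM with XY101 and 796.31 with vehicle, and the part of NACA reads in its value was not tested. The catalytic subunits of the strand-extending polymerases also differed in sign. POLE, of the leading strand, was 6.91 FPKM with XY101 and 5.49 with vehicle (0.33, interval 0.18 to 0.48). POLD1, of the lagging strand, was 24.97 and 28.19 FPKM (-0.17, interval -0.28 to -0.07). The genes with ratios below 0 also share exon bases with same-strand protein-coding entries that have no gene symbol. These shares were 16.8% for POLA2, 10.9% for PRIM1 and 8.63% for POLD1. No exon overlap was listed for POLA1 or POLE. The levels of those entries were not available, and the part of their reads in the division was not tested. The polymerase and primase genes had the lowest median ratio of the 10 roles, -0.17. Of these 5 genes, 2 were at least 25% higher, where 18.9% of all genes were.

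**Figure D3:**
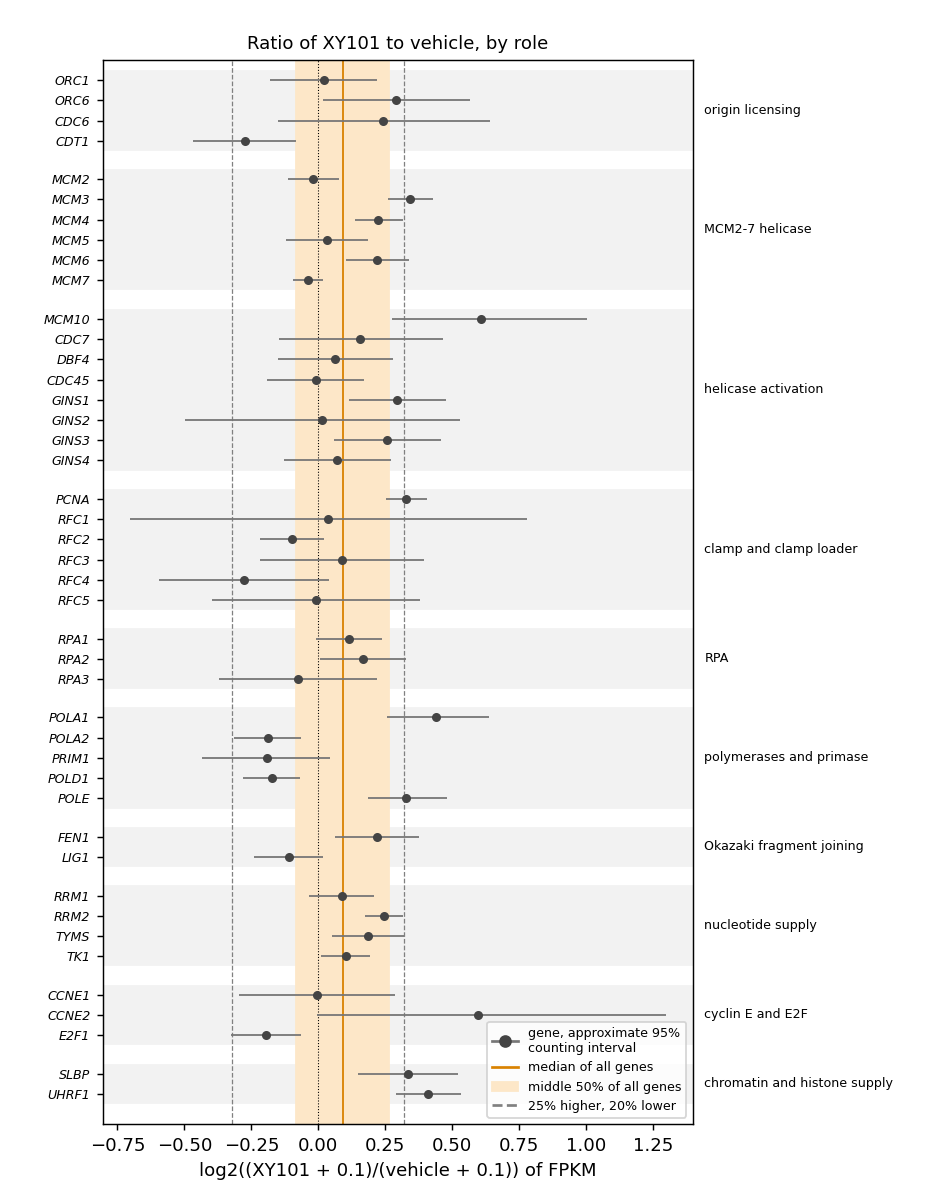
Log2 ratio of XY101 to vehicle for each of the 43 genes by role, with its approximate 95% counting interval; the solid line is the median of all genes (0.09), the band the middle 50% of all genes (-0.08 to 0.26), the dotted line 0 and the dashed lines the limits of 25% higher and 20% lower. POLA1 and POLE lie to the right of the band while POLA2, PRIM1 and POLD1 lie to its left.

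Genes that finish Okazaki fragments, the short pieces of the lagging strand, lay on either side of the median gene. FEN1, the flap nuclease, was 86.75 FPKM with XY101 and 74.52 with vehicle (0.22, interval 0.06 to 0.38). LIG1, the ligase that seals the nick FEN1 leaves, was 19.11 and 20.64 FPKM (-0.11, interval -0.24 to 0.02). The interval of LIG1 was below the median gene, whereas that of FEN1 held it.

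The nucleotide supply genes were the most even of the larger roles, with all 4 ratios above 0 and no more than 0.16 apart. RRM2, the S-phase subunit of ribonucleotide reductase, was 65.66 FPKM with XY101 and 55.32 with vehicle (0.25, interval 0.18 to 0.32), above the median gene. Its partner RRM1 was 28.28 and 26.60 FPKM (0.09), so the level of RRM2 over RRM1 was 2.32 with XY101 and 2.08 with vehicle. TYMS, thymidylate synthase, was 52.65 and 46.28 FPKM (0.19). TK1, whose levels are given above, had a ratio of 0.10. TYMS shares 39.9% of its exon bases with ENOSF1 on the opposite strand, at 5.73 FPKM with XY101 and 5.40 with vehicle, and no source used here states whether the counting used strand. RRM2 has 3 and TYMS 2 named pseudogenes.

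The genes that open S phase differed from each other. CCNE2 was 1.79 FPKM with XY101 and 1.15 with vehicle (0.60, 1.51-fold), but this rests on about 54 and 35 fragments and the interval, 0.00 to 1.30, reaches the median gene and 0. It also shares 37% of its exon bases with INTS8 on the opposite strand, at 5.45 FPKM with XY101 and 4.97 with vehicle. CCNE1, the more abundant cyclin E, was 8.48 and 8.51 FPKM (-0.01), so the level of CCNE1 over CCNE2 was 4.74 with XY101 and 7.40 with vehicle. E2F1, the activator of many genes described here, was 21.69 FPKM with XY101 and 24.82 with vehicle (-0.19, interval -0.32 to -0.06), lower than the median gene.

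Both genes of chromatin and histone supply were higher with XY101. UHRF1, which brings the maintenance DNA methyltransferase to newly copied DNA, was 22.72 FPKM with XY101 and 17.09 with vehicle (0.41, 1.33-fold, interval 0.29 to 0.53). SLBP, which binds the stem-loop of replication-dependent histone mRNAs, was 29.42 and 23.32 FPKM (0.33, 1.26-fold, interval 0.15 to 0.52). Their median of 0.37 was the highest of the 10 roles, over only 2 genes, and both intervals were above the median gene. The SLBP interval with the shortest coding transcript, -0.04 to 0.72, held that gene.

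The ratio varied with the base composition of the transcripts, in the 43 genes as in all genes. Spearman's correlation of ratio with GC content was -0.39 over the 43 genes and -0.21 over 10808 genes with an annotated length, values that describe genes sharing the same pair of libraries. The 14 genes of lowest GC content (36.6 to 44.9%) had a median ratio of 0.19, where all genes of that GC range had 0.18. The 14 genes of highest GC content (52.2 to 65.7%) had a median of -0.03, where all genes of that range had 0.04. CDT1 at 65.7% GC, POLD1 at 64.9% and E2F1 at 61.6% were among the low ratios, and CCNE2 at 36.6% and POLA1 at 42.8% among the high. UHRF1 at 57.1% and POLE at 56.4% were high despite a high GC content, and PRIM1 at 41.2% and RFC4 at 44.9% were low despite a low one. With ratios centred in 20 bins of GC content, CCNE2, MCM10 and UHRF1 were at least 25% higher and PRIM1 and RFC4 at least 20% lower. The part of GC content in the differences was not otherwise tested. Ratios also varied with transcript length, with a correlation of 0.29 in the 43 genes and 0.14 in all genes, and with mean FPKM (-0.20 in each).

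**Figure D4:**
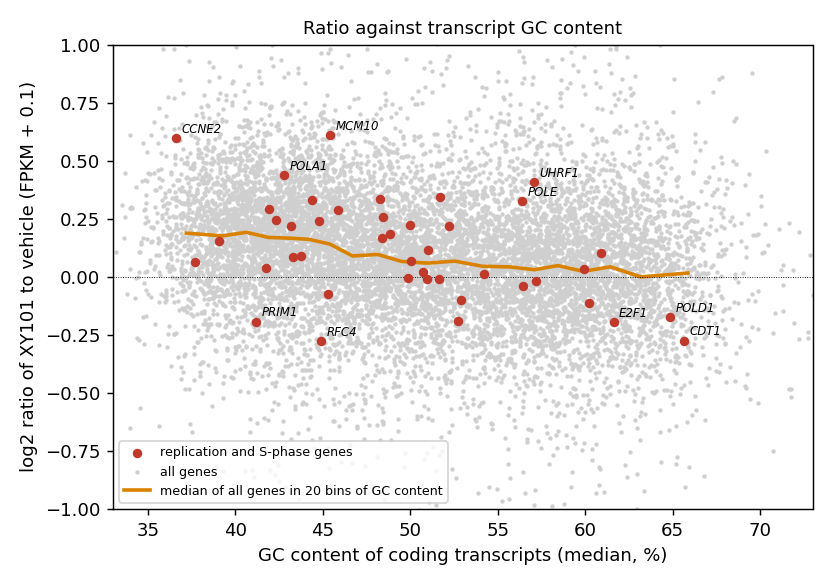
Log2 ratio of XY101 to vehicle against the median GC content (%) of a gene's coding transcripts, for the 43 replication and S-phase genes and for all genes; the line joins the medians of all genes in 20 bins, and the vertical axis is limited to ratios from -1 to 1. The line slopes down with GC content, CDT1, POLD1 and E2F1 sit at the lower right, and UHRF1, POLE, PRIM1 and RFC4 lie away from it.

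Other genes of the same processes, in lists chosen with earlier results of these data known, had a similar or slightly higher centre. Over 4 lists covering other replication genes, chromatin assembly, E2F control and the S-phase checkpoint, 68 of 71 genes passed 1 FPKM, their median log2 ratio was 0.16, 44 (64.7%) were above the median gene, 16 (23.5%) were at least 25% higher and 0 lower. Over all genes 18.9% were at least 25% higher and 7.51% at least 20% lower. The median GC content of these genes was 44%, against 50.3% for all genes. Their median ratio was 0.07 when centred on the median gene and 0.05 when centred in bins of GC content. Among the other replication genes, 36 of 38 passed, with a median of 0.13 and 10 at least 25% higher. Among the factors that mark and fire origins, ORC5 was 7.42 FPKM with XY101 and 5.24 with vehicle (0.49). ORC4 was 11.6 and 9.1 FPKM (0.35). TOPBP1, which helps load CDC45 and activates the ATR kinase, was 6.07 and 4.44 FPKM (0.44). ORC4 and ORC5 belong to the same complex as ORC1, which was at 0.02. At the fork, TOP2A, the type II topoisomerase that untangles copied DNA, was 25.82 FPKM with XY101 and 20 with vehicle (0.37). Its interval, -0.02 to 0.76, held 0. DONSON, a protein of the replication fork, was 8.96 and 7.12 FPKM (0.33), and its interval, 0.06 to 0.61, held the median gene. POLD3, an accessory subunit of polymerase delta, was 10.01 and 7.95 FPKM (0.33), and its interval, -0.15 to 0.82, held 0. Other accessory polymerase subunits had lower ratios. POLD2 was 279.5 FPKM with XY101 and 328.13 with vehicle (-0.23, interval -0.28 to -0.18). POLD4 was at -0.07, POLE2 at 0.05, POLE3 at 0.09 and POLE4 at 0.10. The checkpoint adaptor claspin (CLSPN) and the flap nuclease DNA2 were low genes, at 1.65 and 1.47 FPKM in the mean, with ratios of 0.38 and 0.40. Their intervals, 0.02 to 0.79 and -0.04 to 0.90, held the median gene. In the nucleotide pool, SAMHD1, which degrades deoxynucleotides, was 7 FPKM with XY101 and 4.97 with vehicle (0.49).

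The E2F and RB family genes differed among themselves. Of 18 genes of E2F control 17 passed 1 FPKM, with a median of 0.21, 13 above the median gene and 4 at least 25% higher, where 18.9% of all genes were. E2F3, another activator, was 4.4 FPKM with XY101 and 2.71 with vehicle (0.68), so the level of E2F1 over E2F3 was 4.93 with XY101 and 9.16 with vehicle. RB1, the repressor that E2F1 to E2F3 bind, was 5.27 and 3.50 FPKM (0.58). Its relative RBL1 was 2.22 and 1.65 FPKM (0.41), with an interval of 0.01 to 0.85 that held the median gene. The ratios of E2F3, RB1 and RBL1 thus lay on the other side of the median gene from that of E2F1. On the side of E2F1 lay E2F7 (-0.25, interval -0.52 to 0.02), E2F5 (-0.24, interval -0.51 to 0.03), TFDP2 (-0.05) and E2F4 (0.03). CDC25A, the phosphatase that activates CDK2, was 7.05 FPKM with XY101 and 5.60 with vehicle (0.33). The CDC25A interval, 0.05 to 0.62, held the median gene. Of the chromatin assembly genes, 1 of 7 was at least 25% higher, the histone chaperone ASF1A at 5.00 FPKM with XY101 and 3.11 with vehicle (0.67), and the list had a median of 0.24. Of the S-phase checkpoint genes, 1 of 8 was at least 25% higher, the kinase CHEK1 at 17.27 and 13.74 FPKM (0.33), with a list median of 0.11. For the next stage of the cycle, 19 of 20 mitosis genes passed 1 FPKM, with a median of 0.17 and 0 past either limit. Of all genes, 18.9% were past the upper limit and 7.51% past the lower. The highest ratio of the mitosis genes was that of NUSAP1, a spindle microtubule protein, at 37.88 FPKM with XY101 and 30.48 with vehicle (0.31). The lowest was that of CDC20, an activator of the anaphase-promoting complex, at 272.89 and 302.10 FPKM (-0.15).

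The E2F motif was more frequent in the promoters of the replication genes than in promoters at large. RefSeq promoters (GRCh38.p14, 250 bases before and 50 after each start) were matched for 37 of the 43 genes; MCM4, MCM5, GINS4, RPA2, RPA3 and CCNE2 were not matched. At least 1 of TTTGGCGC, TTTCCCGC, TTTCGCGC and TTTGCCGC was present on either strand in 19 of 37 genes (51.4%), against 3.31% of 35116 promoters and 6.86% of 8975 genes tested that had a promoter; TTTGGCGC and TTTCGCGC can overlap on opposite strands, as they do in MCM6. Genes with a match had a median ratio of 0.19, and 11 of 19 were above the median gene. Genes without one had a median of 0.05, and 7 of 18 were above it. Over all genes the medians were 0.12 with a match and 0.10 without. The CCAAT box, bound by NF-Y, was present in 22 of 37 genes (59.5%), against 34.6% of promoters and 43.4% of genes tested. The replication genes had median ratios of 0.17 with it and -0.01 without, and all genes 0.10 with it and 0.09 without. AGGTCA, the core of the element bound by ROR receptors, was present in 3 of 37 genes (8.11%), namely FEN1, POLD1 and TK1, against 13.8% of promoters and 13.6% of genes tested. A match is a description of the letters and not a bound site.

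The 250 bases before the start are shown for the genes at both ends of the ratios among those averaging 5 FPKM or more, POLA1 and UHRF1 and then RFC4 and CDT1, with E2F motif matches in capitals. They show that a match occurs on both sides of the comparison, in POLA1, UHRF1 and CDT1, and that RFC4 has none in this window.
POLA1: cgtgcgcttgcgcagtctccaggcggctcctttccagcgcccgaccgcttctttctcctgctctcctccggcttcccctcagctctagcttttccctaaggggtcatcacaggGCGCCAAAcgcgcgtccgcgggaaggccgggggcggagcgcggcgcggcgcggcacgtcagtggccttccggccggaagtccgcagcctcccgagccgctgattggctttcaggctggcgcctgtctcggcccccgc
UHRF1: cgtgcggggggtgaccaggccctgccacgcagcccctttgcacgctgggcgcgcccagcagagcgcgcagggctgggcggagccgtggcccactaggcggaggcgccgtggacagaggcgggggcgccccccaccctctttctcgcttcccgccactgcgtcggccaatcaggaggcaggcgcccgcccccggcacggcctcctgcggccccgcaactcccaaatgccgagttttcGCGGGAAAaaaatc
RFC4: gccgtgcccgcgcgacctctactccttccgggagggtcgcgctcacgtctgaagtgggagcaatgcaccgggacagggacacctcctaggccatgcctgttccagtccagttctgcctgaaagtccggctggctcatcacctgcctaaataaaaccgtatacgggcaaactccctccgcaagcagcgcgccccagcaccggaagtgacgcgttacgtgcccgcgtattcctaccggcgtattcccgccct
CDT1: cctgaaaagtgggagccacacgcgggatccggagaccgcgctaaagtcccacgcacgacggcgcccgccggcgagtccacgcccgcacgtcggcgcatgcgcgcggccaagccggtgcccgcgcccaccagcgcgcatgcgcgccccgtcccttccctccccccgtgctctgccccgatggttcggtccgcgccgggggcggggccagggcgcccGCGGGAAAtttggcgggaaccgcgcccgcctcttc
The POLA1 stretch is chrX:24693668-24693917 on the plus strand and its motif, TTTGGCGC on the opposite strand, begins at -137. The UHRF1 stretch is chr19:4909251-4909500 on the plus strand, before the first of its starts, with TTTCCCGC on the opposite strand at -14. The RFC4 stretch is chr3:186806483-186806732 on the minus strand. The CDT1 stretch is chr16:88803539-88803788 on the plus strand, with TTTCCCGC on the opposite strand at -35. POLA1 and UHRF1 had log2 ratios of 0.44 and 0.41, and CDT1 had -0.27 with the same motif as UHRF1.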

How the data were processed

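RNA-seq of HUCCT-1 cells gave 1 XY101 and 1 vehicle library, grouped by the sample labels. The values are FPKM, deposited by the authors to 2 decimals. The methods name TruSeq, GRCh37/hg19, BWA, Bowtie 2 and RSEM. The submitters' processing notes name, with no role for each, a KAPA mRNA HyperPrep kit, HTSeq 0.11.2, limma 3.40.6, DESeq2, HISAT2, FastQC and the build GRCh38. These sources leave unsettled how reads of overlapping and near-identical genes were divided. Of 17424 rows, 770 held annotation text and no gene, and 16654 genes were used.

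Ratios used a pseudocount of 0.1 FPKM, which understates differences of low genes, and a minimum mean of 1 FPKM. A gene was counted when at least 25% higher or, the inverse, 20% lower. Depth was estimated from the step between low FPKM values where a gene has 1 annotated transcript (offset 300 nt). It is approximate, as are the intervals. Lengths, GC content and overlaps came from GENCODE release 44 on GRCh37. Steps were tested on simulated data. Every gene of the set was named. Of each other list, genes past either limit were named or, where there were none, the highest and the lowest. The results of some genes are not reported here. GMNN, EIF4A2, NACA, ENOSF1, INTS8, PRIM2, POLD2, POLD4, POLE2, POLE3, POLE4, E2F4, E2F5, E2F7 and TFDP2 were added after their values were seen. Promoters were printed for the 2 highest and 2 lowest ratios among genes averaging at least 5 FPKM. The 43 genes and all lists were chosen with earlier results of these data known. Alternatives covered pseudocount, filter, scaling, fold threshold and transcript length. Scripts ran in Python 3.11.15 with matplotlib 3.10.9, scipy 1.17.1, numpy 2.4.6 and pandas 2.3.3.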

Additional observations from a re-analysis of the deposited data

How the results depend on the processing

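The median log2 ratio of the 43 genes, 0.09, lay between -0.02 with trimmed-mean scaling and 0.13 with each library rescaled to the same sum, and the number above the median gene, 21, was 20 to 22, over 40 genes at a minimum mean of 5 FPKM and otherwise 43. It was 19 of 41 without the genes whose exons overlap another expressed gene, an alternative chosen after seeing the data. The 8 genes at least 25% higher and 0 at least 20% lower changed with scaling. Rescaling to the same sum gave 10 higher, with GINS1 and ORC6 added, and 0 lower (all genes 23.4% and 6.07%). Centring on the median gene gave 3 higher and 2 lower (11.7% and 12.4%), and trimmed-mean scaling, a shift of 0.11, gave 3 and 2 (11.1% and 13.0%). Of 3 kinds of centring chosen after seeing the data, GC bins gave 3 and 2 (11.2% and 11.4%), transcript length bins 2 and 3 (11.2% and 12%), and mean FPKM bins 4 and 2 (9.99% and 12.5%). MCM10 and CCNE2 were higher and RFC4 lower under all 5 settings from centring on the median gene onward. A threshold of 1.5-fold left 2 genes higher and 0 lower (4.90% and 2.32% of all genes), and 2-fold left 0 higher (1.17%). With the shortest coding transcript in place of the median length, 7 counting intervals were above the median gene and 4 below. With the longest, 14 were above and 11 below, where 11 and 10 were with the median length. No share of all genes was taken at the shortest or longest length. The medians of the 10 roles stayed within the median bounds of their genes' counting intervals under each alternative. Single ratios left their own interval for 9 genes with length bins, 7 with trimmed-mean scaling, 6 with centring on the median gene, 4 with GC bins and 1 with mean FPKM bins. No ratio past a limit changed sign. No paired analysis was possible because each condition had 1 library. At the median transcript length, estimated fragments were fewest for RFC1 (33 with XY101 and 33 with vehicle), CCNE2 (54 and 35) and GINS2 (66 and 66). The RFC1 count rests on a median length of 584 nt, where its longest coding transcript is 4886 nt. With that transcript the RFC1 interval was -0.14 to 0.21. For GINS2 these lengths are 625 and 2628 nt.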
